A study of Mus musculus with 14 samples.

Results

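Prostaglandin synthesis enzymes were followed through the stroma of the mouse cornea and through cells grown out of it, on 14 Affymetrix MG_U74Av2 arrays with 1 RNA sample each. The enzymes are Ptgds (lipocalin-type prostaglandin D synthase), Ptgs1 and Ptgs2 (the constitutive and the inducible cyclooxygenase) and Ptgis (prostacyclin synthase). They were chosen by gene symbol in the platform's probe annotation, of 8251 genes that have a probe set of their own there. Of the 4 genes, 3 matched, with 5 probe sets: 3 for Ptgds, 1 for Ptgs2 and 1 for Ptgis. Ptgs1 matched none and was not analysed here.

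All RNA came from CD-1 mice. Tissue was stroma of adults aged 7 to 8 weeks (adult stroma, 3 arrays) and stroma at postnatal day 10 (P10 stroma, 2 arrays). The other 9 arrays were primary cultures of stromal cells from mice aged 7 to 8 weeks, 3 arrays each. The medium of keratocyte cultures was DMEM with 1% horse serum that was platelet-poor. Fibroblast cultures had 10% fetal bovine serum, and myofibroblast cultures the same serum with TGF-beta1 at 10 ng/ml. The groups carry the name of the cell type that each medium favours. The labels do not say whether arrays of a group came from separate animals or cultures, so p-values measure the spread between these samples, which may be technical. In bulk RNA, fewer cells of a type and less RNA per cell cannot be told apart.

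Prostaglandins are made in steps. Phospholipases free arachidonic acid from membranes, a cyclooxygenase turns it into prostaglandin H2, and a terminal synthase turns that into one end product, which acts on receptors of nearby cells. Ptgs2 is an immediate early gene that serum, growth factors and interleukin-1 switch on in many fibroblasts, and in the cornea prostaglandins are known for their rise after injury. Ptgds is also a secreted carrier of small lipophilic molecules, abundant in cerebrospinal fluid, and prostacyclin, the product of Ptgis, is best known as a dilator of blood vessels.

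The promoters of Ptgds and Ptgs2 are shown because these genes moved in opposite directions between keratocyte and myofibroblast cultures. Each line holds the 100 bases before the annotated start and the first 30 from it, from RefSeq on GRCm38.p6. They lie at chr2:25469720-25469849 on the minus strand (Ptgds) and chr1:150099931-150100060 on the plus strand (Ptgs2). Capitals mark matches to a searched motif.
Ptgds promoter: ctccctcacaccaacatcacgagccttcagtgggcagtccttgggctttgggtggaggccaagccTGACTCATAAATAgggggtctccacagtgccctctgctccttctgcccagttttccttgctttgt
Ptgs2 promoter: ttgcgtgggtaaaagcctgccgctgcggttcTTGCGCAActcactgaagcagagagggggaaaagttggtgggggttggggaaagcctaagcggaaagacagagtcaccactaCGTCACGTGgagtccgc

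A set of 8 motifs was searched on both strands of 300-base windows (250 bases before the start and 50 after it) in 32851 promoters. The Ptgs2 window held the palindrome TTGCGCAA of C/EBP factors, which begins 69 bases before the annotated start and is present in 0.183% of promoters. It also held the core of the cAMP response element, CGTCA (20.8% of promoters), and an E-box, CACGTG (7.15%), which overlap just past the annotated start. The Ptgds window held an AP-1 site, TGACTCA (5.2%), overlapping the A/T-rich ATAAATA (5.6%) that begins 29 bases before the start. The other motifs searched were in neither window: the CCAAT box, the canonical TATA box TATAAA, and the Smad palindrome GTCTAGAC. A match describes letters and is not a measured site.

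Signals are linear and have a floor at exactly 1. A set of 19 control probe sets for bacterial and yeast transcripts gave the background, with a median of 42.2 and a 95th percentile of 138, and signals under 138 are called within background here. Arrays carry no counts, and their number limits the precision. Signals at the 3' end of Gapdh over those at its 5' end, a measure of RNA degradation, stood at 2.12 on adult replicate 1 and between 0.756 and 0.936 on every array of the other groups. Summed signals of 19 corneal epithelium markers were 26900 to 32735 on the tissue arrays and 1055 to 1292 on the culture arrays, where Col17a1 and Itgb4 were at the floor throughout. These markers separated tissue from culture arrays, and the part of epithelial RNA in the differences between tissue and culture was not tested.

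The culture names were set against their markers. Keratocan (Kera), a proteoglycan of keratocytes, had mean signals of 557 in P10 stroma, 303 in adult stroma, 165 in keratocyte cultures, 44.7 in fibroblast cultures and 8.96 in myofibroblast cultures, and passed in none of these steps (adjusted p = 0.691, 0.182, 0.66 and 0.878, limma). Other keratocyte markers did not follow it: of 11 tested, 5 rose from adult stroma to keratocyte cultures (Fmod by 3.41, Thbd by 2.62, Ogn by 2.54, Cd34 by 0.86 and Dcn by 0.60) and 1 fell (Tkt, by 2.31). Of all probe sets, 21.8% rose and 9.25% fell in that step. None of the 11 passed from keratocyte to fibroblast cultures (2 had an unadjusted p below 0.05), so this list does not separate those cultures. Smooth muscle actin (Acta2), the defining gene of myofibroblasts, stood at 3193 in keratocyte, 2046 in fibroblast and 2983 in myofibroblast cultures. None of the 11 measured contractile genes passed limma's test between myofibroblast and fibroblast cultures, and 0 had an unadjusted p below 0.05, so the name of the myofibroblast group rests on its treatment. Of all probe sets, 1.07% passed in that comparison.

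**Figure D1:**
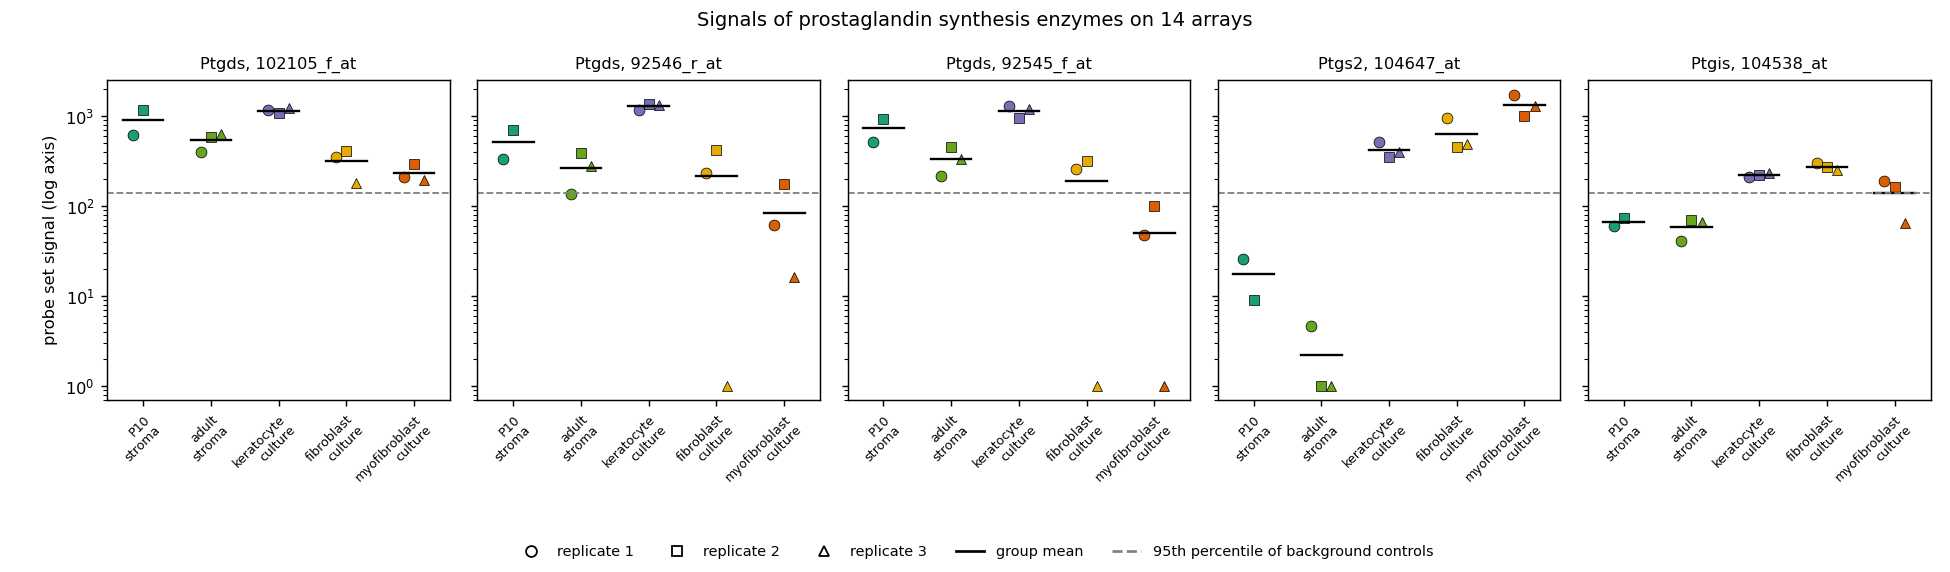
Signals of the 5 probe sets on all 14 arrays (log axis), by group, with group means as bars and the 95th percentile of background controls, 138, as a dashed line. Ptgs2 is under the line in all tissue arrays and above it in all culture arrays. The mean of Ptgds is highest in keratocyte cultures on each of its probe sets, without passing against P10 stroma.

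Ptgs2 was within background in tissue and well above it in every culture, highest with TGF-beta1. Its probe set 104647_at (M88242) gave 26.0 and 8.91 in P10 stroma and 4.63, 1 and 1 in adult stroma. Signals of keratocyte cultures were 512, 348 and 397. Fibroblast cultures gave 944, 450.4 and 490.0, and myofibroblast cultures gave 1718, 997 and 1269.6. No culture array was as low as any tissue array, and the lowest myofibroblast array was above the highest fibroblast array.

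Between keratocyte cultures and adult stroma, Ptgs2 rose by 4.57 ± 0.29 (SE) in log2(signal + 16), with an adjusted p of 2.78e-08 (limma). The size of that difference rests on the added constant (7.20 with 1 and 2.85 with 64, called with both). Because adult stroma was within background, the linear statement is a bound: the keratocyte mean of 419 ± 84.2 (SD, n = 3) was at least 3.0-fold higher than background. The same bound was at least 4.30-fold for fibroblast cultures (628 ± 274) and at least 9.40-fold for myofibroblast cultures (1328 ± 364), with adjusted p of 7.95e-09 and 1.07e-09 (limma) against adult stroma. The background of these comparisons is wide: 21.8% of all probe sets rose between adult stroma and keratocyte cultures, 18.4% between adult stroma and fibroblast cultures and 17.5% between adult stroma and myofibroblast cultures. All 3 cultures were also above P10 stroma by the same test, where 8.84%, 7.97% and 7.84% of probe sets rose in keratocyte, fibroblast and myofibroblast cultures. P10 and adult stroma were both within background, so no fold is given; the fitted difference of -0.83 ± 0.32 had an adjusted p of 0.218.

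Among the cultures, fibroblast and keratocyte arrays overlapped. Their difference of 0.50 ± 0.29 (95% interval -0.12 to 1.12) had an adjusted p of 0.699 (limma). Myofibroblast cultures were 3.17-fold higher than keratocyte cultures in mean signal, a rise of 1.61 ± 0.29 with an adjusted p of 0.00362, beside 1.10% of probe sets that rose there.

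The addition of TGF-beta1 to 10% serum separates the last pair of groups. Ptgs2 was 2.11-fold higher in mean signal, and the difference of 1.11 ± 0.29 had an adjusted p of 0.109 without pairing. Replicate numbers were used to pair these cultures, although the labels name no pairing. Deviations from the group means of same-numbered arrays correlated at 0.623, 0.682 and 0.533 over the probe sets kept. Replicate 2 of keratocyte and fibroblast cultures correlated at 0.572, and arrays of unlike number were not compared, so the pairing is assumed. Within the pairs the myofibroblast signal was 1.82, 2.21 and 2.59 times the fibroblast signal, higher in 3 of 3. With the number as a block and only these 6 arrays in the fit, the adjusted p was 0.0175 (limma). With all arrays it was 0.00391 (limma), but that block also joined tissue and keratocyte arrays by number. Adult and keratocyte arrays of the same number correlated at only 0.307, -0.161 and -0.0331. Without pairing 0.289% of probe sets rose. The call was also reached without pairing with quantile normalization or centred arrays (1.17 in each), and leaving out fibroblast replicate 1, the array with the highest fibroblast signal, gave 1.43 with an adjusted p of 0.0256.

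**Figure D2:**
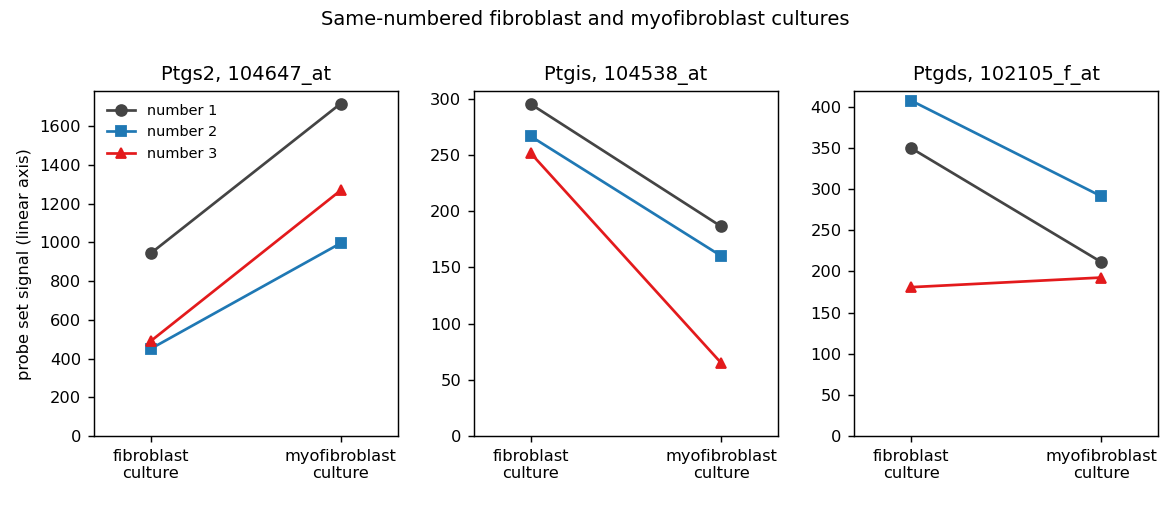
Signals (linear axes) of Ptgs2, Ptgis and Ptgds 102105_f_at in fibroblast and myofibroblast cultures, with same-numbered cultures joined by a line. Ptgs2 is higher with TGF-beta1 in all 3 pairs and Ptgis is lower in all 3, while 1 of the 3 Ptgds lines runs slightly upward.

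The mean of Ptgds was highest in keratocyte cultures and lowest in myofibroblast cultures on each of its 3 probe sets. The order of mean signals was the same on each: keratocyte culture, P10 stroma, adult stroma, fibroblast culture, myofibroblast culture. Keratocyte cultures did not pass against P10 stroma on any probe set of Ptgds. The differences were 0.41 on 102105_f_at, 1.37 on 92546_r_at and 0.69 on 92545_f_at (adjusted p = 0.475, 0.435 and 0.72, limma). Probe sets 92545_f_at and 92546_r_at are both for the same accession (AB006361), and 102105_f_at is for AI840733. The suffixes say that probes of the f_at sets may match more than 1 member of a gene family and that the r_at set was chosen under relaxed design rules, so the 3 are given separately.

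Probe set 102105_f_at gave 619 and 1174 in P10 stroma and 397, 579 and 631 in adult stroma. Keratocyte cultures gave 1147, 1062 and 1211. Fibroblast cultures gave 350, 407 and 181, and myofibroblast cultures gave 211, 291 and 192. Every keratocyte array was above every array of adult stroma and of the other cultures, and the higher P10 array lay within the keratocyte range.

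Probe set 92546_r_at gave 329 and 699.6 in P10 stroma, 137, 385 and 274 in adult stroma and 1160, 1339 and 1318 in keratocyte cultures. Fibroblast signals were 231, 416 and 1, and myofibroblast signals were 60.7, 173 and 16.2. Probe set 92545_f_at gave 515 and 931 in P10 stroma, 214, 453 and 329 in adult stroma and 1274, 940.2 and 1200.5 in keratocyte cultures. In fibroblast cultures it gave 256, 313 and 1 and in myofibroblast cultures 47.2, 99.8 and 1. Fibroblast replicate 3 was thus at the floor on both of these probe sets but read 181 on the other one, and this array sets most of their fibroblast spread (SD 208 and 166).

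The contrast of myofibroblast with keratocyte cultures passed the test on all 3 Ptgds probe sets, beside 4.88% of probe sets that fell there. The log2 difference was -2.24 ± 0.30 on 102105_f_at (adjusted p = 0.000349), -4.05 on 92546_r_at (adjusted p = 0.0167) and -4.52 on 92545_f_at (adjusted p = 0.00729, limma). In mean signal, keratocyte cultures were 4.92-fold higher on the first. The myofibroblast means on the other two were within background, with 1 and 0 of 3 arrays above it, and keratocyte cultures were at least 8.55-fold and at least 8.20-fold higher there. The call on 92546_r_at ended when keratocyte replicate 1 or 3 or myofibroblast replicate 3 was left out (-4.12, -4.02 and -3.42), and with an added constant of 1 the calls on 92546_r_at and 92545_f_at both ended (adjusted p = 0.102 and 0.0601).

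Each single step of Ptgds to and from keratocyte cultures passed the test on 1 of its 3 probe sets, 102105_f_at. From adult stroma it rose by 1.09 ± 0.30 (2.13-fold in mean signal, adjusted p = 0.0117), a call that ended without adult replicate 1, the array with the high Gapdh ratio (0.90, adjusted p = 0.0586), and with that ratio as a covariate (0.84, adjusted p = 0.123). From keratocyte to fibroblast cultures it fell by 1.89 ± 0.30 (3.65-fold in mean signal, adjusted p = 0.00675), beside 1.18% of probe sets that fell, and the call ended without keratocyte replicate 3 (-1.84, adjusted p = 0.0559). On 92546_r_at and 92545_f_at the rise steps were 2.30 and 1.78 (adjusted p = 0.0716 and 0.150) and the later steps -3.40 and -3.32 (adjusted p = 0.106 on each). The arrays of the groups did not overlap in either step on any of the 3 probe sets, which are of 1 gene and not independent. For no comparison was the share of all probe sets without overlap counted. With the mean log2 over the 3 probe sets, the steps were 1.72 and -2.87, with adjusted p of 0.0712 and 0.0608 (limma).

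Between the tissues, the mean of Ptgds was higher in P10 than in adult stroma, 896 ± 393 (SD, n = 2) against 536 ± 123 (n = 3) on 102105_f_at, with a difference of -0.68 ± 0.33 and an adjusted p of 0.363; 3.71% of all probe sets passed in that comparison by limma, none of them from these enzymes, whose lowest p was that of Ptgs2 (1 of the 5 probe sets had an unadjusted p below 0.05). On 92546_r_at and 92545_f_at the tissue difference was -0.93 and -1.09 (adjusted p = 0.77 and 0.705, limma), with no overlap of arrays on 92545_f_at. TGF-beta1 gave -0.36 ± 0.30 on 102105_f_at (95% interval -0.99 to 0.28, adjusted p = 0.901), where 1.07% of probe sets passed. On 92546_r_at and 92545_f_at it gave -0.65 and -1.20 (adjusted p = 0.958 and 0.881, limma), with wider intervals (-2.62 to 1.31 and -3.12 to 0.71). Myofibroblast cultures were below adult stroma on 102105_f_at (-1.15 ± 0.30, 2.31-fold in mean signal, adjusted p = 0.00812), beside 15.5% of probe sets that fell there. That contrast was -1.75 on 92546_r_at and -2.74 on 92545_f_at (adjusted p = 0.165 and 0.0297), and the call on 92545_f_at ended without adult replicate 2 or 3 or myofibroblast replicate 1 or 3 (-2.50, -2.72, -2.91 and -1.96). On 102105_f_at fibroblast and myofibroblast cultures were below P10 stroma (-1.48 and -1.83, adjusted p = 0.00612 and 0.00108), where 10.0% and 13.7% of probe sets fell. The first of these calls ended without P10 replicate 2 (-1.02, adjusted p = 0.146). On 92546_r_at neither passed (-2.03 and -2.68, adjusted p = 0.201 and 0.0792). On 92545_f_at the fibroblast contrast did not pass (-2.63, adjusted p = 0.0877), and the myofibroblast contrast did (-3.83, adjusted p = 0.0136) but not without P10 replicate 1, P10 replicate 2 or myofibroblast replicate 3 (-4.25, -3.41 and -3.05).

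**Figure D3:**
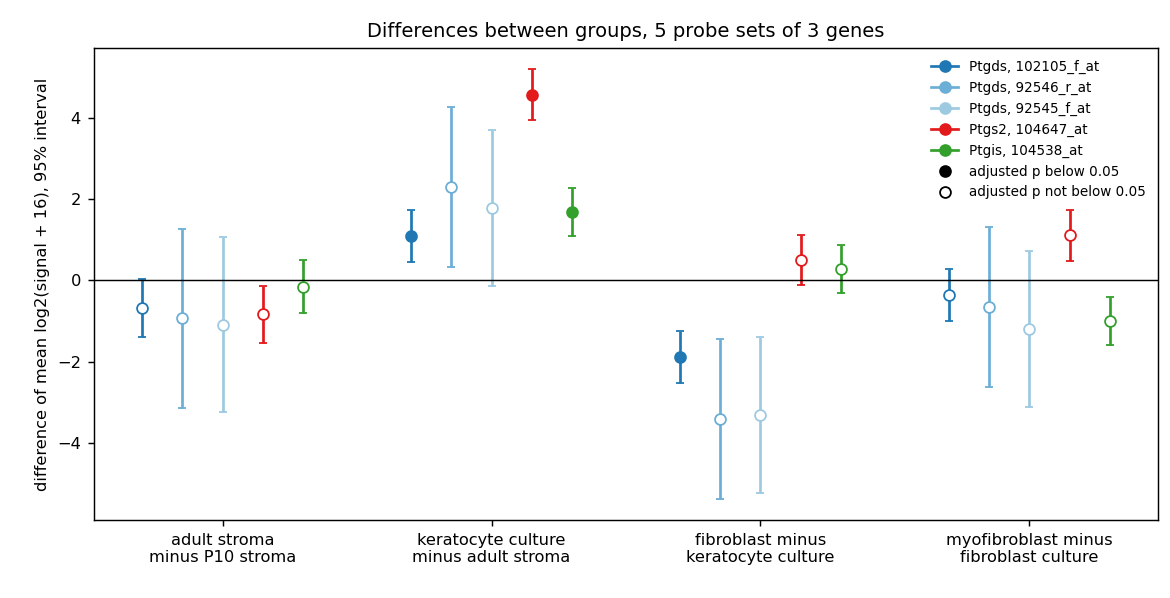
Differences of mean log2(signal + 16) with 95% intervals for the 5 probe sets in the 4 comparisons of neighbouring groups, without pairing; filled points have an adjusted p below 0.05. Ptgs2 rises in the culture step (4.57, from a group within background), and the step from keratocyte to fibroblast cultures lowers Ptgds (-1.89 on 102105_f_at) while the Ptgs2 and Ptgis intervals include 0.

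Pigment cell genes had the same group order in part. Summed signals of the 9 measured pigment markers were 2271 and 5628 in P10 stroma, 1214 to 1441 in adult stroma, 2919 to 3218 in keratocyte cultures, 1138 to 1516 in fibroblast cultures and 1131 to 1564 in myofibroblast cultures. Of these 9 genes, 5 rose from adult stroma to keratocyte cultures, where 21.8% of all probe sets rose. From keratocyte to fibroblast cultures 4 fell, where 1.18% of all probe sets fell, and without fibroblast replicate 3 the count of falls was 1. Dct, which acts late in melanin synthesis, had means of 1402, 480, 1200, 329 and 334 in the order P10 stroma, adult stroma, keratocyte, fibroblast and myofibroblast cultures. Tyrp1, a melanosome enzyme, was at the floor on 1 array each of adult stroma, fibroblast and myofibroblast cultures and had a mean of 401 in keratocyte cultures. The part of pigment cells in the Ptgds result was not tested.

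Macrophage and leukocyte markers had their highest sums in keratocyte cultures. Their 22 genes summed to 5315 to 6439 there, against 2218 to 3023 in adult stroma, 2597 to 4757 in fibroblast and 2334 to 3561 in myofibroblast cultures. Lysozyme (Lyz2) was at the floor on 2 adult arrays and had a mean of 1129.9 in keratocyte cultures, 484 in fibroblast and 122 in myofibroblast cultures. Of the 21 genes tested, 11 rose and 1 fell from adult stroma to keratocyte cultures, where 21.8% and 9.25% of all probe sets did. From there to fibroblast cultures 6 fell, where 1.18% of all probe sets did. Fibroblast replicate 3, with Ptgds at the floor on 2 probe sets, had the highest macrophage sum of its group, 4757. This array stood apart on other lists too. Its keratocyte markers summed to 21976 (13699 and 10030 on fibroblast replicates 1 and 2) and its contractile markers to 7796 (12606 and 14321). The part of macrophages and leukocytes in any enzyme's result was not tested. Contractile markers had their highest mean sum in keratocyte cultures too (15665), and the remaining marker lists did not. Arachnoid, dura and perivascular fibroblast markers had mean sums of 7097, 7648 and 7668 in keratocyte, fibroblast and myofibroblast cultures. Markers of retinal pigment epithelium, ciliary body and iris (4 of 11 measured) had 2318, 3269 and 1492. The part of these cell types was not tested either.

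**Figure D4:**
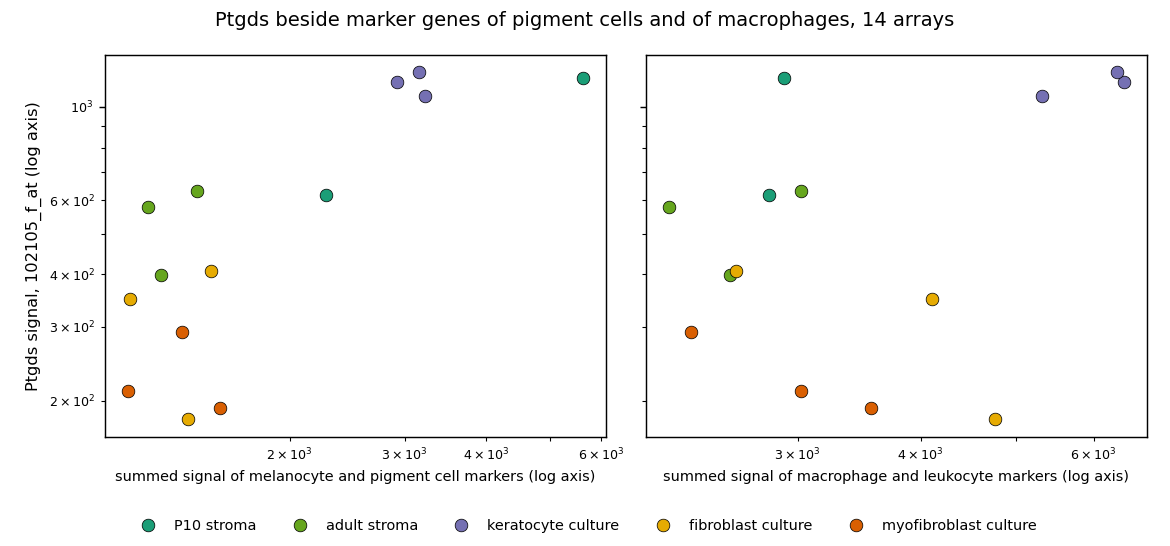
Ptgds signal on 102105_f_at against the summed signal of pigment cell markers (left) and of macrophage markers (right), 1 point per array, log axes. Keratocyte arrays are high on both axes in both panels, and the higher P10 array (1174) has the largest pigment sum (5628) but a macrophage sum of 2907.

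Ptgis was within background in tissue and above it in keratocyte and fibroblast cultures. Its probe set 104538_at (AB001607) gave 58.9 and 72.5 in P10 stroma and 41.1, 69.3 and 65.3 in adult stroma. Keratocyte cultures gave 208, 220.1 and 231, and fibroblast cultures 295, 267 and 252. Myofibroblast cultures gave 187, 160.3 and 65.2, so that 1 of them lay within the tissue range. The order of means was fibroblast, keratocyte, myofibroblast, P10 and adult stroma.

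From adult stroma, Ptgis rose by 1.68 ± 0.27 in keratocyte cultures (at least 1.59-fold higher than background, adjusted p = 0.000302) and by 1.97 ± 0.27 in fibroblast cultures (at least 1.96-fold, adjusted p = 7.65e-05, limma). Against P10 stroma both cultures were higher too (1.53 and 1.82, adjusted p = 0.00294 and 0.000732). Of all probe sets, 21.8% and 18.4% rose in these cultures from adult stroma, and 8.84% and 7.97% from P10 stroma. In myofibroblast cultures, whose mean of 137 ± 63.9 was within background although 2 of 3 arrays were above it, the fitted rise of 0.96 ± 0.27 over adult stroma had an adjusted p of 0.0153. That call ended without adult replicate 1, myofibroblast replicate 1 or myofibroblast replicate 2 (0.78, 0.70 and 0.80), and with the Gapdh ratio as a covariate (0.70, adjusted p = 0.226). From adult stroma to myofibroblast cultures 17.5% of probe sets rose. Myofibroblast cultures did not pass against P10 stroma (0.81, adjusted p = 0.0774) or keratocyte cultures (-0.72, adjusted p = 0.153, limma).

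Keratocyte and fibroblast cultures, neighbours in the order, differed by 0.28 ± 0.27 (95% interval -0.31 to 0.87, adjusted p = 0.856), although their arrays did not overlap. With TGF-beta1, where the mean was within background and 2 of 3 arrays were above it, fibroblast cultures were at least 1.69-fold higher, and the difference of -1.01 ± 0.27 had an adjusted p of 0.133 (limma). The signal within the pairs was 0.632, 0.601 and 0.259 times the fibroblast signal, lower in 3 of 3, and the adjusted p with the pairing in these 6 arrays was 0.1. Ptgis and Ptgs2 thus lay on opposite sides of 0 in this comparison, and only the Ptgs2 difference passed in the paired fit.

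Unequal change of Ptgds and Ptgis was tested on the log2 difference of their probe sets (102105_f_at and 104538_at) within each array. It moved by -2.17 from keratocyte to fibroblast cultures, with no overlap of arrays and an exact permutation p of 0.1, two-sided, the smallest that 3 against 3 arrays allow. From adult stroma to keratocyte cultures it moved by -0.59 (exact permutation p = 0.1), and from P10 to adult stroma by -0.53 (p = 0.2, the smallest that 3 against 2 allow, exact). With TGF-beta1 it moved by 0.65 (exact permutation p = 0.3). Ptgis was within background on every tissue array, so the moves that involve tissue rest on a probe set with no measured level there. Adjusted over these 4 comparisons the exact p were 0.2, 0.2, 0.267 and 0.3, and the design cannot reach the threshold.

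**Figure D5:**
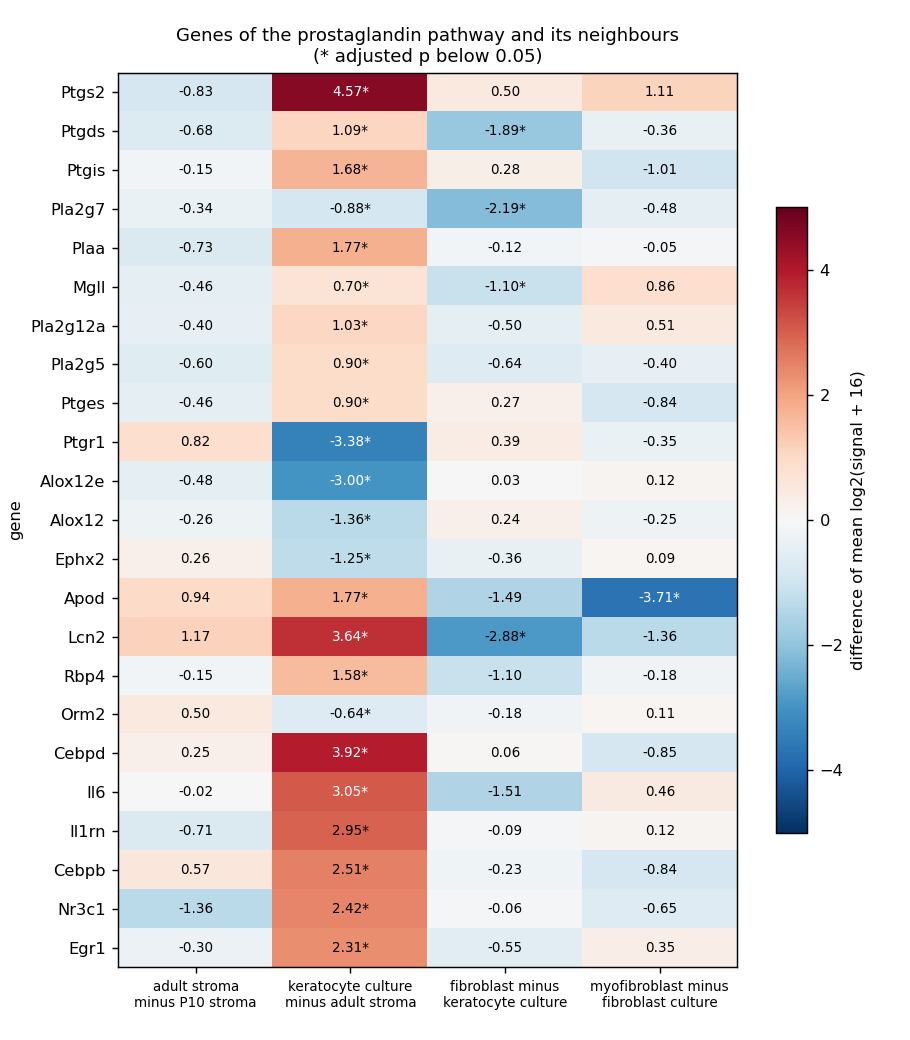
Differences of mean log2(signal + 16) for the measured enzymes and for named genes of the pathway lists, in 4 comparisons; colour and number give the difference and an asterisk marks an adjusted p below 0.05 without pairing. Most asterisks stand in the column of keratocyte cultures minus adult stroma, with rises up to 4.57 and falls to -3.38.

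Of the steps before the cyclooxygenases, 13 of 20 listed genes for arachidonate release were measured. From adult stroma to keratocyte cultures 4 rose and 1 fell, with a median of 0.18 beside 0.12 over all probe sets, of which 21.8% rose and 9.25% fell, so the counts are near the background. Pla2g12a, a secreted phospholipase, rose by 1.03 (92.4 to 202 in mean signal, adjusted p = 0.00145), and Plaa, a phospholipase-activating protein, rose by 1.77 (adjusted p = 0.000598). Pla2g7, which breaks down platelet-activating factor, fell at this step by 0.88 (adjusted p = 0.0304) and again in fibroblast cultures by 2.19 (adjusted p = 0.00195, limma). Its means ran from 466 in adult stroma to 249, 44.7 and 25.6 in the 3 cultures. Mgll, which releases arachidonate from 2-arachidonoylglycerol, rose by 0.70 and then fell by 1.10 (305 to 498 to 227, adjusted p = 0.016 and 0.0166). The Mgll rise was not called without adult replicate 1 or 3 (0.64 and 0.58), nor the fall without any 1 of the keratocyte arrays or fibroblast replicate 3 (-1.13 to -0.93). With the replicate block over all arrays Mgll was higher with TGF-beta1 by 0.86 (adjusted p = 0.0394, limma). With the block in only the 6 fibroblast and myofibroblast arrays, that Mgll difference was not called. The first Pla2g7 fall was not called without adult replicate 1 or 2 or keratocyte replicate 2 or 3 (-0.97 to -0.66). Pla2g4a, the cytosolic phospholipase that feeds cyclooxygenases, had means of 280, 409, 746 and 1093 from adult stroma through keratocyte, fibroblast and myofibroblast cultures. None of these single steps passed (adjusted p = 0.175, 0.225 and 0.708, limma). With the block in only the 6 arrays, the last step was 0.54 (adjusted p = 0.0457, limma), and with the block over all arrays it was not called.

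Of the other terminal synthases, 1 of 4 measured genes passed in the culture step and none in the other 3 comparisons of neighbouring groups (limma), where 1, 0 and 1 had an unadjusted p below 0.05. In the culture step 31.1% of all probe sets passed in either direction. Ptges, an inducible prostaglandin E synthase, rose by 0.90 from adult stroma to keratocyte cultures (80.9 ± 21 to 163 ± 18.5, SD, n = 3 each, adjusted p = 0.00293). In fibroblast and myofibroblast cultures it was 203 and 105, a difference of -0.84 with an adjusted p of 0.0604 (limma), and of 0.025 with the pairing and all arrays. That Ptges difference was not called with the pairing in only the fibroblast and myofibroblast arrays. Tbxas1, which makes thromboxane, was 258, 186, 185, 165 and 172 over the 5 groups from P10 stroma to myofibroblast cultures.

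All 11 listed prostanoid receptors had a probe set, but 5 had a mean under 50 in every group, among them Ptgir and Ptgdr, the receptors of prostacyclin and prostaglandin D2. None of the 6 that were tested passed in any of the 4 comparisons of neighbouring groups by limma, and 1 had an unadjusted p below 0.05, in the culture step. Ptger1, a prostaglandin E2 receptor, had means of 618, 717, 476, 485 and 425 in the same group order, and Ptgdr2, the other prostaglandin D2 receptor, 202, 179, 218, 211 and 247. Of 2 tested genes for transport and breakdown, Ptgr1, a reductase that inactivates prostaglandins and leukotriene B4, fell by 3.38 from adult stroma to keratocyte cultures (2206 to 197, adjusted p = 4.34e-08).

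Lipoxygenases compete for the same arachidonic acid. Of 9 tested genes of the lipoxygenase and leukotriene branch 3 fell and 0 rose in the culture step, with a median of -0.45 beside 0.12 over all probe sets, of which 9.25% fell. The 3 include 2 of the 4 tested lipoxygenases. Alox12e, an epidermal-type lipoxygenase, fell by 3.0 (508 to 45.8, adjusted p = 1.29e-06) and Alox12 by 1.36 (117 to 35.3, adjusted p = 8.88e-05). Ephx2, which hydrolyses epoxides of arachidonic acid, fell by 1.25 (adjusted p = 0.000788, limma); for Alox12 and Ephx2 both means were within background. The epithelial markers given above fell in the same comparison, 17 of 18 tested, and their part was not tested.

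Lipocalins, the family of small carrier proteins to which Ptgds belongs, had 11 tested genes including Ptgds itself. From adult stroma to keratocyte cultures 4 rose and 1 fell, where 21.8% and 9.25% of all probe sets did, and from there to fibroblast cultures 2 fell, where 1.18% did. Lcn2, an iron-siderophore carrier of inflamed tissue, rose by 3.64 and fell by 2.88 (59.5 to 905 to 109, adjusted p = 1.33e-06 and 0.00185). Apod, apolipoprotein D, had means of 847 in adult stroma and 3361, 1174 and 74.9 in keratocyte, fibroblast and myofibroblast cultures. Among lipocalins it alone passed with TGF-beta1, where it fell by 3.71 (adjusted p = 0.00703). With only the fibroblast and myofibroblast groups in the fit, Apod was not called (adjusted p = 0.201, limma). Its rise of 1.77 in the culture step (adjusted p = 0.0376) was no longer called without adult replicate 1 or 3 or keratocyte replicate 1 or 3 (1.72, 1.60, 1.36 and 1.56). Rbp4, a retinol carrier, rose by 1.58 (16.2 to 80.0, adjusted p = 0.0012); both means are within background. In the paired fit with all arrays Lcn2 was lower with TGF-beta1 by 1.36 (adjusted p = 0.0461, limma). That Lcn2 difference was not called with the pairing in only the fibroblast and myofibroblast arrays.

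Known inducers and regulators of Ptgs2 moved most in the step from tissue to culture. Of 23 tested genes 15 rose and 1 fell, with a median of 1.02 beside 0.12 over all probe sets, and 31.1% of all probe sets passed in either direction. C/EBP factors were among them: Cebpd rose by 3.92 (86.2 to 1509, adjusted p = 1.25e-07) and Cebpb by 2.51 (119 to 735, adjusted p = 3.52e-05). Il6, a cytokine, rose by 3.05 and Egr1, an immediate early factor, by 2.31 (adjusted p = 0.000688 and 4.64e-05, limma). Il1rn, the interleukin-1 receptor antagonist, rose by 2.95 (44.5 to 440, adjusted p = 1.68e-07), and Nr3c1, the glucocorticoid receptor, by 2.42 (6.36 to 104, both within background, adjusted p = 0.000721). Between keratocyte and fibroblast cultures none of the 23 passed by limma (6 had an unadjusted p below 0.05), and with TGF-beta1 only Il1r1 did, named here after its values were seen. The interleukin-1 receptor Il1r1 fell by 1.54 there (399 to 130, adjusted p = 0.000762). With only the fibroblast and myofibroblast groups in the fit, Il1r1 was not called (adjusted p = 0.131, limma). With the replicate block in only the 6 fibroblast and myofibroblast arrays, Cebpb gave -0.84 (adjusted p = 0.035, limma). With the block over all arrays Cebpb was not called.

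Genes with the most similar pattern were ranked by Pearson correlation of log2(signal + 16) over the 14 arrays among 7428 genes. The arrays share their groups, so the coefficients largely describe 5 group means. For Ptgds on 102105_f_at the list was Tyr (0.953), Slc4a5, Myh11, Mylk and Dct (0.942), and Tyr and Dct are the pigment genes tyrosinase and dopachrome tautomerase. Tyr was within background on every array, with group means from 12.0 to 68.9. On 92545_f_at Apoe (0.988), a lipid-carrying apolipoprotein, came first, and on 92546_r_at Slc4a5 (0.963), a sodium bicarbonate cotransporter. Apoe and Slc4a5 were also lowest within the fibroblast group on replicate 3, at 29.2 and 1. Slc4a5 and Mylk were among the top 5 for all 3 Ptgds probe sets.

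For Ptgs2 the order was Mthfd2 (0.992), Map6, Blvra, Fgf17 and Sec13 (0.984). Mthfd2, a mitochondrial folate enzyme, had means of 95.7 and 79.2 in P10 and adult stroma and 347, 429 and 577 in keratocyte, fibroblast and myofibroblast cultures. Fgf17, a growth factor, had 1 and 4.90 in P10 and adult stroma and 254, 308 and 662 in the same cultures. For Ptgis it was Mmp13 (0.961), Tmem259, Il1r1, Cxcl5 and Rbpj (0.929). The collagenase Mmp13 had 132, 247 and 73.9 in the 3 cultures, and the chemokine Cxcl5 1038, 1051 and 68.5. Both had higher means in fibroblast than in myofibroblast cultures, a likeness to Ptgis by which they were chosen. Their means in tissue were under 6.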

How the data were processed

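The authors computed an intensity for each probe set with Microarray Suite 5.0 from 5 µg of TRIzol RNA per array and scaled it to a target of 150, per the labels. Trimmed means (2% at each end) differ between columns, 164 to 225, so which scaling the table has is unknown; it holds no detection calls. After 66 control probe sets were removed, probe sets with a mean signal of 50 or more in at least 1 group were kept, 10370 in all. All 14 arrays entered 1 fit of log2(signal + 16) by limma (version 3.58.1, R version 4.3.3) with a mean for each group, 9 residual degrees of freedom and eBayes with a trend. Tests were two-sided, Benjamini-Hochberg adjustment ran over the 10370 probe sets, and calls needed an adjusted p below 0.05. A plus or minus after a log2 difference is its standard error, and after a mean signal the SD. The fit was tested on simulated data.

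Comparisons that share a group, such as those with adult stroma or with fibroblast cultures, share its arrays. Numbers were taken to pair fibroblast with myofibroblast cultures because same-numbered arrays deviate together, and the labels name no shared animal or batch. The replicate block over all arrays joined the other groups by number too. Named genes were the enzymes, up to 6 called genes per pathway list and the 5 most similar genes per probe set. Pla2g4a, Tbxas1 and the prostanoid receptors were named outside this rule, and none of them was called between neighbouring groups in the main fit. A gene with several probe sets is represented in lists by the one with the highest mean log2 signal. The enzymes and lists were chosen with earlier results of these data known. The planned comparison of Ptgs1 with Ptgs2 could not be made. Promoters came from a RefSeq table on GRCm38.p6, which gave those of Ptgds and Ptgs2. Alternatives were other added constants, filters, normalizations and variance estimates, fits of 2 groups, the replicate block, array weights, a Gapdh covariate, the mean over probe sets and leaving out each array.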

Additional observations from a re-analysis of the deposited data

How the results depend on the processing

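Of 22 called differences of the enzymes (5 probe sets, 10 comparisons), all 582 alternative values kept their direction and 553 stayed called. Of 27 called differences of other named genes between neighbouring groups, 661 of 701 alternative values stayed called and all 701 kept their direction. The Ptgis differences between neighbouring groups stayed on their side of the threshold in every alternative run. All values are log2 differences.

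For Ptgds 102105_f_at, array weights brought adult minus P10 stroma past the threshold at -1.01. Keratocyte minus adult was no longer past it with the Gapdh covariate (0.84) or the probe set mean (1.72), and ran from 0.90 to 1.22 when arrays were left out. Fibroblast minus keratocyte was no longer past it with 2 groups (-1.89) or the probe set mean (-2.87), and ran from -2.11 to -1.55 without single arrays. For 92546_r_at, keratocyte minus adult passed with a constant of 64 (2.09), 2 groups (2.30), the replicate block (2.30) and array weights (2.97); fibroblast minus keratocyte passed with 64 (-2.67), the replicate block (-3.40) and weights (-3.34). Without single arrays these ran from 1.91 to 2.61 and from -4.31 to -1.98. For 92545_f_at the first passed with 64 (1.64), 2 groups (1.78) and weights (2.30), and the second with 64 (-2.59), the replicate block (-3.32) and weights (-3.25); the first ran from 1.51 to 2.02 without single arrays, past the threshold without fibroblast replicate 3.

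For Ptgs2, adult minus P10 stroma passed with a constant of 1 (-2.53) and with the replicate block (-0.78), both groups being within background. Myofibroblast minus fibroblast passed with quantile normalization (1.17), centred arrays (1.17) and the replicate block with all arrays (1.11) or these 6 arrays (1.11), and ran from 0.90 to 1.43 without single arrays. The cause of these changes was not tested. The pairing changed no other call of this comparison among the enzymes; it moved the count of probe sets called from 111 to 173 with all arrays and 210 with 6.

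Counts over all probe sets moved more. Adult minus P10 stroma ran from 117 (without P10 replicate 1) to 2335 (array weights) around 385, and was 133 without P10 replicate 2 and 220 without adult replicate 1. Keratocyte minus adult ran from 2374 to 6366 around 3221. Fibroblast minus keratocyte ran from 20 (without keratocyte replicate 3) to 360 around 142, with 36 without keratocyte replicate 1 and 59 without fibroblast replicate 3. Myofibroblast minus fibroblast ran from 16 (2 groups) to 210 around 111. Signal over background limits Ptgs2 and Ptgis in tissue and Ptgds in myofibroblast cultures.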
